A study of Mus musculus with 20 samples.

Results

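The complement and coagulation factors described here are a set of 44 genes, 23 of the complement system and 21 of blood coagulation and its inhibitors, most of them made by hepatocytes and secreted into plasma. Each gene was taken from the array annotation by an exact match of its symbol, with the probe set of the highest mean over all 20 arrays. Named probe sets were found for 40 genes, 21 of complement and 19 of coagulation, out of 19938 genes named on the array. For C3, Cfd and Cpb2 no probe set carried the symbol, and for Klkb1 only 1 shared with Cyp4v3 did, so these 4 were not analysed here. All 40 lay above the 40th percentile of their array on all 20 arrays and were tested.

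The samples were livers of 20 male mice of 4 inbred strains, 5 animals each. The strains were NZO/Hl (NZO below), C3H (from the Jackson Lab), 129P2/OlaHsd (129P2 below) and C57/Bl6. NZO is a polygenic model of obesity and diabetes, and the other strains serve as its comparisons. All animals were 6 weeks old and had been fed a high-fat diet, with 45% of its energy as fat, from weaning at day 21, so no group on another diet or of another age stands beside them. The labels name no litter, hybridisation date or pooling, and 1 array stands for 1 animal. The series concerns Nudt19, a coenzyme A hydrolase, and the arrays compare untreated strains with each other.

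Complement is a cascade of plasma proteases that marks and lyses foreign cells. It starts from antibody (classical pathway), from sugar-binding lectins (lectin pathway) or on the target surface itself (alternative pathway), and all routes converge on C3, on C5 (encoded by Hc in the mouse) and on the pore built from the terminal components. Coagulation is a second cascade of liver-made proteases, several of which need vitamin K, that ends in the cleavage of fibrinogen by thrombin, and it is held in check by antithrombin, proteins C and S and tissue factor pathway inhibitor. The liver makes most factors of both systems, and several of them rise in the acute phase response, which interleukin 6 drives through STAT3 and C/EBP factors.

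Values are RMA signals on the log2 scale, where a difference of 1 is a 2-fold difference, and differences are always the first strain named minus the second. A difference was called where limma's p-value, adjusted over 14190 tested genes, was under 0.05. Arrays of 1 strain were more alike (median correlation 0.985 over 40 pairs) than arrays of different strains (0.979 over 150 pairs). The spread of an array's values, as its interquartile range, was 2.20 to 2.50 in NZO, 2.17 to 2.40 in C3H, 2.19 to 2.37 in 129P2 and 2.34 to 2.48 in C57/Bl6, and with spread as a covariate 13 of 19 coagulation members (68.4%), 4 of 21 complement members (19%: C2, Cfb, Mbl2 and Vtn) and 6948 of 14190 tested genes (49%) followed it. All 8 named hepatocyte markers were above the floor on every array, and limma called 0 of the 8 between any strains (5 had an unadjusted p under 0.05 in at least 1 comparison). The liver endothelial markers were lower in NZO, as 7 of 10 were called lower than in C57/Bl6, 5 than in C3H and 6 than in 129P2 (6.64%, 3.09% and 4.61% of all tested genes were). Of the stellate cell markers, 4, 3 and 4 of 10 were. Of the fat cell markers 6 of 8 were above the floor on all arrays and Adipoq and Lep were dim, under that percentile, on all. Of the neutrophil markers 3 of 8 were above it on all arrays, and S100a8, Ly6g, Retnlg and Ngp were dim on all. Of the lymphocyte markers with a named probe set 3 of 6 were above it, with Cd79a, Ms4a1 and Cd3g dim, and of the platelet markers 2 of 6, with Pf4 dim. S100a9 of neutrophils and both measured red cell markers, Alas2 and Slc4a1, were called higher in NZO than in C57/Bl6, by 0.39, 0.58 and 0.24 (adjusted p = 0.0285, 0.00130 and 0.0367), and Alas2 also higher than in 129P2, by 0.59 (adjusted p = 0.00110). The summed linear signal of the red cell markers was 1459 to 2039 in NZO, 1385 to 1605 in C3H, 1109 to 1330 in 129P2 and 984.1 to 1410 in C57/Bl6, and that of the neutrophil markers 751.2 to 846.7 in NZO, 629.3 to 720.8 in C3H, 661.7 to 734.2 in 129P2 and 605 to 667.8 in C57/Bl6. Their part in the member differences was not tested.

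Complement genes carried most of the strain differences of the set, led by C4b, C4a, C9, Cfi and C6, and coagulation genes fewer, led by F12 and Pros1. By the F-test over 4 strains 11 of 21 complement members (52.4%) and 3 of 19 coagulation members (15.8%) were called, beside 17% of all tested genes. Pairwise, 13 complement members were called in at least 1 comparison and 8 in none, and 8 of 19 coagulation members were called in at least 1 and 11 in none, where 21.7% of all tested genes were called in at least 1. The 11 uncalled coagulation members had strain means within 0.06 to 0.17 of each other, and the 8 uncalled complement members within 0.09 to 0.30. At an unadjusted limma p under 0.05, 1 of those 11 and 5 of those 8 differed in at least 1 comparison. The plot of all differences shows both systems side by side.

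**Figure D1:**
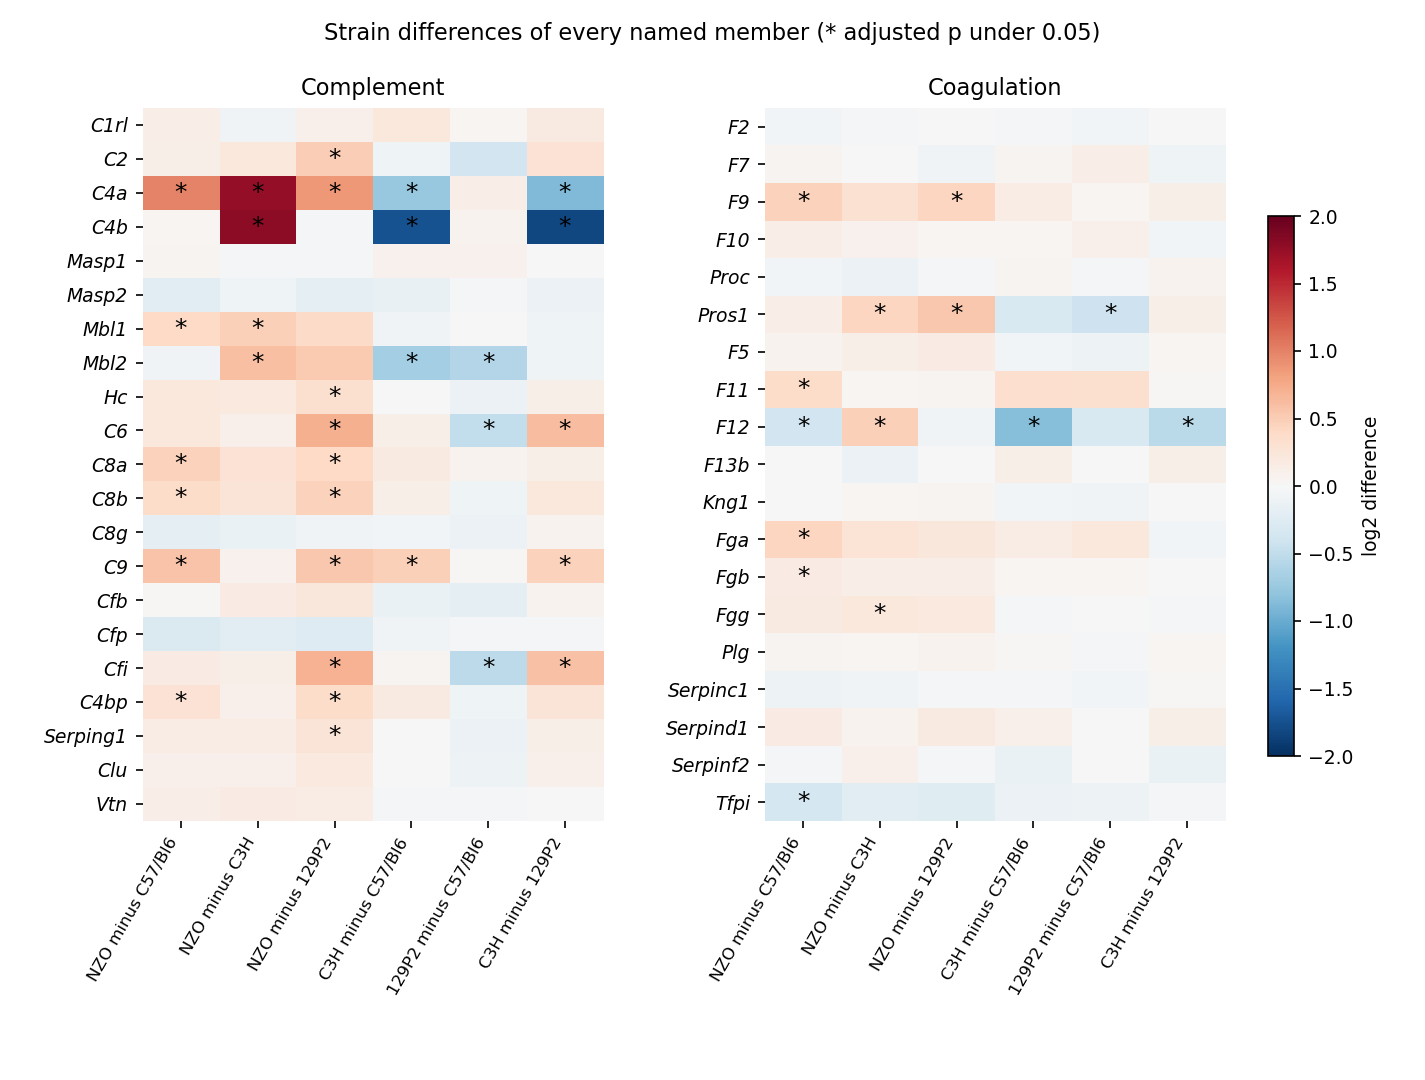
Colour gives the log2 difference of every named complement (left) and coagulation member (right) in the 6 strain comparisons, on a scale from -2 to 2, and an asterisk marks an adjusted p under 0.05. The strongest colours are those of C4b in its 3 comparisons with C3H and of C4a in NZO minus C3H, and every complement asterisk in the 3 NZO columns lies on a positive difference.

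In NZO liver the called complement genes were higher in every case. Against C57/Bl6, 6 of 21 were called, all higher, where 10.3% of all tested genes were called and 3.63% were higher. Against C3H, 4 were called, again all higher, beside 6.6% of all genes called and 3.51% higher. Against 129P2, 10 were called and all were higher, beside 8.9% of all genes called and 4.29% higher. The median difference over the 21 members was 0.14, 0.15 and 0.32 in these comparisons, and over all tested genes 0.0090, -0.0033 and 0.0079. All 3 comparisons share the NZO arrays. In C3H, 4 complement genes were called against C57/Bl6, 1 higher (2.71% of all genes) and 3 lower (5.34%), where 8.05% of all genes were called. In 129P2, 3 were called lower than in C57/Bl6 (4.08% of all genes lower, 2.11% higher, 6.19% in all). Between C3H and 129P2, 3 were higher (2.25% of all genes) and 2 lower (2.78%), where 5.03% of all genes were called. The NZO count against C57/Bl6 was 3 with array medians set equal and also 3 without C57/Bl6 replicate 3. Against C3H it was 2 without C3H replicate 4, C3H replicate 5 or NZO replicate 3. The 129P2 count against C57/Bl6 was 1 without C57/Bl6 replicate 4 or 5 or 129P2 replicate 2, 3 or 4. Without 4 arrays (named below for C8b), 1 complement gene was called lower in NZO than in C57/Bl6 and 1 lower than in 129P2.

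The largest differences of the whole set were those of the C4 genes. C4b encodes complement C4, which the C1s and MASP-2 proteases cleave, and C4a encodes its close copy Slp, the sex-limited protein, which in many mouse strains depends on androgen. Serum C4 has long been known to differ between mouse H-2 haplotypes. C4b read 12.47, 12.04, 12.12, 11.98 and 11.97 in the NZO animals, 10.25, 10.37, 10.35, 10.39 and 10.27 in C3H, 12.22, 11.96, 12.18, 12.05 and 12.32 in 129P2, and 12.14, 12.03, 11.93, 12.08 and 12.18 in C57/Bl6. Every C3H animal lay far below every animal of the other strains, and those 3 strains overlapped. The mean signal of C3H was 28.3% of that in 129P2 (difference -1.82 ± 0.09, SE, adjusted p = 3.94e-12) and 29.8% of that in C57/Bl6 (-1.75, adjusted p = 5.80e-12), and NZO was 3.46-fold above C3H (1.79, adjusted p = 4.31e-12). In RNA of whole liver, fewer cells of a type and less RNA per cell cannot be told apart.

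C4a split the strains into more levels. Its values were 10.48, 9.86, 10.08, 10.05 and 9.87 in NZO, 8.01, 7.96, 8.81, 8.51 and 8.26 in C3H, 9.31, 9.18, 9.34, 9.01 and 9.15 in 129P2, and 9.30, 9.35, 8.72, 9.16 and 8.81 in C57/Bl6. All NZO animals lay above all others, C3H had the lowest mean with its highest animal inside the C57/Bl6 range, and 129P2 and C57/Bl6 overlapped. The means were 10.07 ± 0.25 in NZO, 8.31 ± 0.35 in C3H, 9.20 ± 0.13 in 129P2 and 9.07 ± 0.29 in C57/Bl6 (SD, n = 5 each). Against C57/Bl6 NZO was higher by 0.999 ± 0.15 (SE, adjusted p = 0.000102), against 129P2 by 0.87 (adjusted p = 0.000475) and against C3H by 1.76 (adjusted p = 3.70e-08). C3H was lower than C57/Bl6, at -0.76 (adjusted p = 0.00239) and by -0.89 than 129P2 (adjusted p = 0.000549). All 8 calls of C4a and C4b held under each of 31 alternative settings.

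The balance between the copies grouped the strains in another way than either gene. The C4a value minus the C4b value of the same array averaged -2.05 ± 0.10 in NZO, -2.02 ± 0.33 in C3H, -2.95 ± 0.16 in 129P2 and -3.00 ± 0.28 in C57/Bl6 (log2, SD, n = 5 each). NZO lay above C57/Bl6 by 0.96 and above 129P2 by 0.90, and C3H above them by 0.99 and 0.94, with an exact two-sided permutation p of 0.00794 in each case (0.0119 adjusted over 6 comparisons), the smallest that 252 relabellings allow. NZO minus C3H was -0.03 (exact p = 0.841) and 129P2 minus C57/Bl6 was 0.05 (exact p = 0.722, adjusted 0.841). Because the copies are nearly identical, probes of 1 may also bind RNA of the other, so the assignment of signal to either copy is uncertain, and sequence differences between strains under the probes were not tested.

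**Figure D2:**
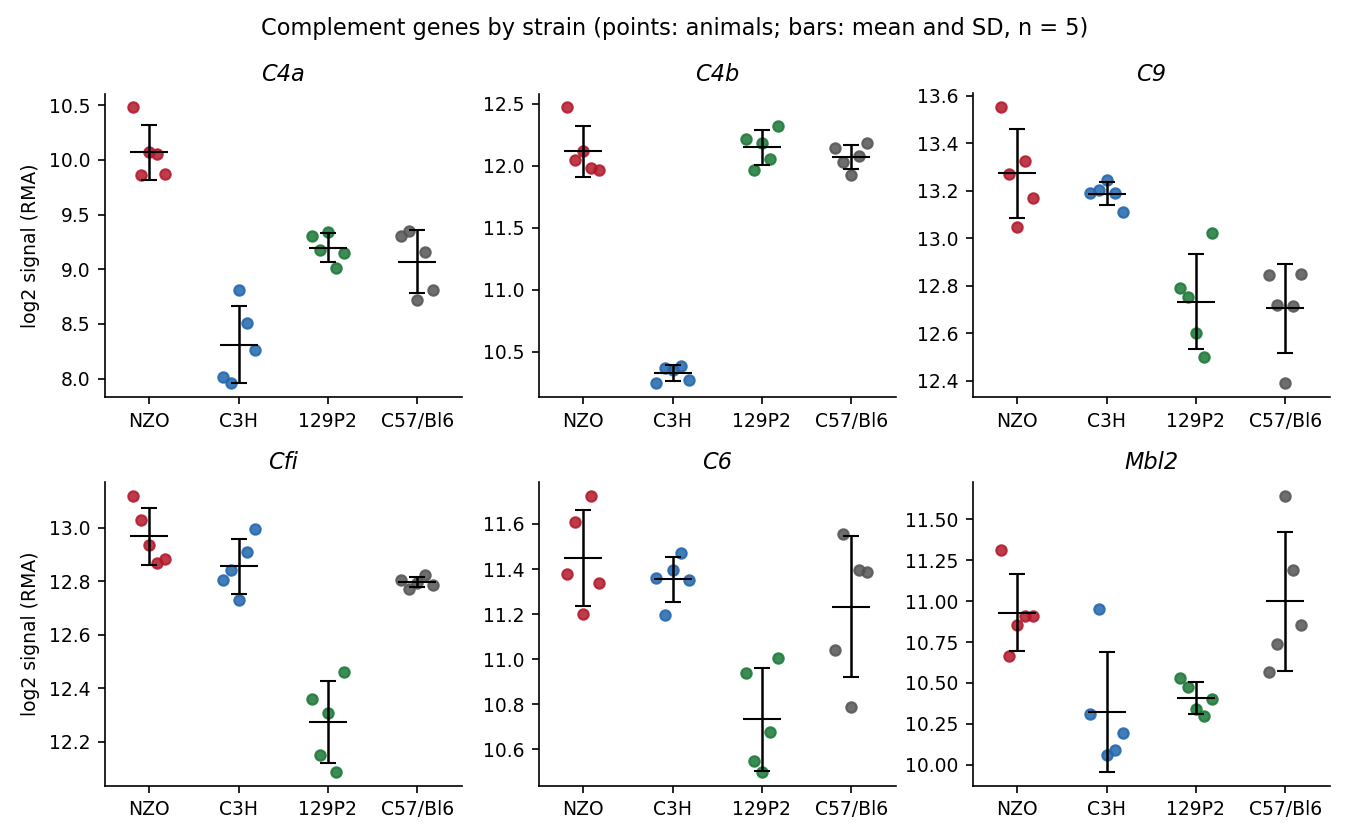
Each point is the log2 RMA signal of 1 animal, with the strain mean and SD as bars (n = 5), for 6 complement genes in NZO, C3H, 129P2 and C57/Bl6. C4b stands apart in C3H alone (10.25 to 10.39, against 11.93 to 12.47 in the other strains), C4a is highest in NZO, and Cfi and C6 have their lowest means in 129P2.

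C4b and C4a lie in the class III region of the major histocompatibility complex on chromosome 17, with Cyp21a1, a steroid 21-hydroxylase gene, between them. Among 17 measured genes of that stretch, C4a was called in 5 comparisons, C4b and Cyp21a1 in 3 each, and Tnxb in 2. Cyp21a1 was higher in NZO by 0.85 than in C57/Bl6, by 1.05 than in C3H and by 0.86 than in 129P2 (SE 0.17 for each, adjusted p = 0.00164, 0.000212 and 0.00147), and it was dim on 2 of the C3H arrays. C3H minus C57/Bl6 in Cyp21a1 was not called. Tnxb, on the other side of C4b, encodes tenascin-X and was lower in NZO than in C57/Bl6, at -0.34 (adjusted p = 0.00931). Nelfe, a subunit of an elongation factor, and Ppt2, a thioesterase, were also lower there, at -0.33 and -0.28 (adjusted p = 0.00407 and 0.0126). The Ppt2 call was lost with another quantile normalization (adjusted p = 0.0691). The other Tnxb call, lower in C3H than in C57/Bl6 at -0.29, was lost without C57/Bl6 replicate 3 or 4 or C3H replicate 1, 3, 4 or 5 (0.0555 to 0.122) and in 4 other settings (0.0521 to 0.129). Stk19 and Dxo, the neighbours of C4a on its far side, were not called in any comparison. All NZO animals nevertheless lay above all others in Dxo. The NZO mean of Dxo was higher by 0.34 than in C57/Bl6, by 0.34 than in C3H and by 0.26 than in 129P2 (adjusted p = 0.0516, 0.0765 and 0.163). For Stk19 the unadjusted limma p was 0.0327 in NZO against C57/Bl6 and 0.0401 against 129P2, with NZO higher by 0.18 in both. Over the whole class III list, 22 of 28 genes were tested, of which 4 were called in NZO against C57/Bl6, 1 each in NZO against C3H and 129P2, 2 in C3H against C57/Bl6, and 0 in 129P2 against C57/Bl6 or C3H against 129P2 (3 and 1 at an unadjusted limma p under 0.05). That is 18.2%, 4.55%, 4.55% and 9.09% of the 22 in the first 4 of these comparisons, beside 10.3%, 6.6%, 8.9% and 8.05% of all genes. The call of Prrt1 in C3H against C57/Bl6 (0.27), a gene named here for its loss, was lost in 12 of 30 settings, 9 of them without 1 array (C57/Bl6 replicate 1, 4 or 5, C3H replicate 1, 3 or 4, NZO replicate 3 or 129P2 replicate 4 or 5, 0.0505 to 0.133).

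**Figure D3:**
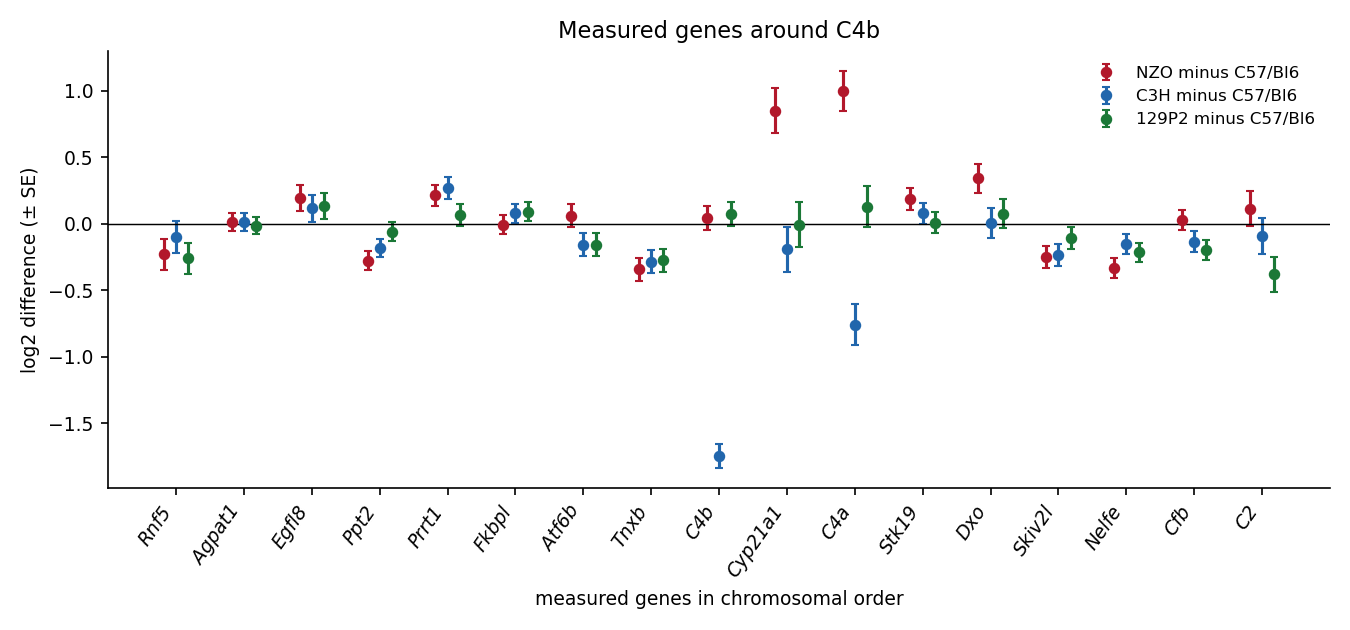
Points are log2 differences from C57/Bl6 with their SE for NZO, C3H and 129P2, for 17 measured genes in chromosomal order from Rnf5 to C2. The C3H points of C4b (-1.75) and C4a (-0.76) and the NZO points of C4a (0.999) and Cyp21a1 (0.85) leave the band in which the other genes lie.

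Of the other genes at the start of the classical and lectin pathways, the mannose-binding lectins differed between strains and the proteases mostly did not. Mbl2 encodes MBL-C, a lectin that binds microbial sugars. It read 11.31, 10.67, 10.85, 10.91 and 10.91 in NZO, 10.31, 10.95, 10.06, 10.09 and 10.20 in C3H, 10.53, 10.48, 10.34, 10.30 and 10.40 in 129P2, and 10.57, 10.74, 11.64, 11.19 and 10.86 in C57/Bl6. All 129P2 animals lay below all NZO and all C57/Bl6 animals, while 1 C3H animal reached into their range. C3H was lower than C57/Bl6, at -0.68 (adjusted p = 0.0171), 129P2 was lower than C57/Bl6, at -0.59 (adjusted p = 0.0446) and NZO was higher by 0.61 than C3H (adjusted p = 0.0353). With array spread as a covariate the differences from C57/Bl6 were -0.42 in C3H and -0.35 in 129P2 (adjusted p = 0.172 and 0.254).

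These Mbl2 calls lay near the threshold, and each was lost when any 1 of several arrays was left out. C3H minus C57/Bl6 was lost without C57/Bl6 replicate 3 or 4 or C3H replicate 3 or 4 (adjusted p 0.0529 to 0.0549). NZO minus C3H was lost without C3H replicate 1, 3, 4 or 5 or NZO replicate 1, 3, 4 or 5 (0.0556 to 0.107). 129P2 minus C57/Bl6 was lost without any of 14 arrays, which were all 5 of 129P2, C57/Bl6 replicates 3, 4 and 5, C3H replicates 1, 4 and 5 and NZO replicates 3, 4 and 5 (0.0502 to 0.142). Leaving out 4 arrays (named below for C8b) ended all 3 calls (0.0762 to 0.106), equal array medians those of NZO minus C3H and 129P2 minus C57/Bl6 (0.0690 and 0.0516), and only the compared strains those against C57/Bl6 (0.0616 and 0.0571).

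Mbl1, which encodes MBL-A, was highest in NZO, at 11.26 ± 0.17 in NZO, 10.79 ± 0.15 in C3H, 10.87 ± 0.31 in 129P2 and 10.86 ± 0.20 in C57/Bl6 (SD, n = 5 each). NZO was higher by 0.47 ± 0.13 (SE) than C3H (adjusted p = 0.0255) and by 0.40 than C57/Bl6 (adjusted p = 0.0490), with no overlap of animals in either. NZO minus 129P2 was 0.39 and was not called (adjusted p = 0.0643). The call against C3H was lost without C3H replicate 4 or 5 or NZO replicate 3 or 4 (0.0608 to 0.0803). The call against C57/Bl6 was lost without any of 14 arrays, namely C57/Bl6 replicates 1, 3, 4 and 5, C3H replicates 2 to 5, NZO replicates 2, 3 and 4 and 129P2 replicates 1, 4 and 5 (0.0504 to 0.144), and with no filter on dim genes, equal array medians or array spread as a covariate (0.0573, 0.114 and 0.0620).

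The lectin pathway proteases Masp1 and Masp2 and the C1r-like protease C1rl were called in 0 comparisons, with strain means that spanned 0.09, 0.23 and 0.21. C2, the protease that joins C4 in the C3 convertase, was higher in NZO (9.95 ± 0.28) than in 129P2 (9.46 ± 0.22) by 0.49 ± 0.13 (SE, adjusted p = 0.0184). The strains overlapped, and the call was lost without NZO replicate 1 (adjusted p = 0.0569) or 129P2 replicate 2 (0.0527). In the alternative pathway, Cfb, its convertase protease and a class III gene as well, and Cfp, which encodes properdin and stabilises that convertase, were called in 0 comparisons. Cfb had strain means of 12.49 in NZO, 12.33 in C3H, 12.26 in 129P2 and 12.46 in C57/Bl6, and Cfp of 8.43, 8.65, 8.70 and 8.73 in the same order.

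The terminal components build the membrane attack complex. Of the 6 among the measured members, 5 were called higher in NZO than in 129P2 and 3 than in C57/Bl6. Of all tested genes 4.29% and 3.63% were. C7, a terminal component outside the members, did not share this direction. Its means were 6.72 in NZO, 6.69 in C3H, 7.13 in 129P2 and 6.88 in C57/Bl6. It was dim on 2 of the C3H arrays. Against C3H 0 were called, beside 3.51% of all genes called higher, although C8a, C8b and Hc had an unadjusted limma p under 0.05. C9 forms the ring of the pore. It read 13.55, 13.27, 13.05, 13.33 and 13.17 in NZO, 13.19, 13.20, 13.25, 13.19 and 13.11 in C3H, 12.79, 12.75, 12.60, 12.50 and 13.02 in 129P2, and 12.85, 12.72, 12.39, 12.72 and 12.85 in C57/Bl6. The strains fell into a high pair, NZO and C3H, and a low pair, 129P2 and C57/Bl6, with no overlap between the pairs. Relative to C57/Bl6 and 129P2, NZO was higher by 0.57 and 0.54, and C3H by 0.48 and 0.45 (SE 0.10 for each, adjusted p = 0.000503, 0.000867, 0.00305 and 0.00640). NZO and C3H differed by 0.08 and 129P2 and C57/Bl6 by 0.03 on average, and neither difference was called.

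C6 starts the insertion of the complex together with C5 and C7. Its values were 11.38, 11.61, 11.20, 11.73 and 11.34 in NZO, 11.36, 11.20, 11.40, 11.47 and 11.35 in C3H, 10.94, 10.55, 10.50, 10.67 and 11.01 in 129P2, and 11.04, 11.55, 10.79, 11.40 and 11.39 in C57/Bl6. The 129P2 animals lay below all NZO and C3H animals and overlapped with C57/Bl6. Relative to 129P2, NZO was higher by 0.72 ± 0.13 (SE, adjusted p = 0.000853) and C3H by 0.62 (adjusted p = 0.00488). 129P2 was lower than C57/Bl6, at -0.50 (adjusted p = 0.0236), a call lost without C57/Bl6 replicate 2, 4 or 5 or 129P2 replicate 2, 3 or 4 (0.0503 to 0.0750) or with only the compared strains (0.0742). Hc, which encodes C5, was higher in NZO (12.68 ± 0.13) than in 129P2 (12.36 ± 0.20) by 0.32 (adjusted p = 0.0184), and this call was lost without NZO replicate 1 (0.0535).

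C8a and C8b encode the alpha and beta chains of C8, and their promoters are shown because these chains of a single protein were both highest in NZO. Both are given on the GRCm38.p6 build from RefSeq, as the 250 bases before the start of the gene, C8a at chr4:104876399-104876648 on the minus strand and C8b at chr4:104766067-104766316 on the plus strand. Capitals mark matches to 4 motifs: the interleukin 6 response element CTGGGAA, the STAT palindrome TTCNNNGAA, the C/EBP site TTGCNNAA and the HNF1 half-site GTTAAT, each searched on both strands.
C8a: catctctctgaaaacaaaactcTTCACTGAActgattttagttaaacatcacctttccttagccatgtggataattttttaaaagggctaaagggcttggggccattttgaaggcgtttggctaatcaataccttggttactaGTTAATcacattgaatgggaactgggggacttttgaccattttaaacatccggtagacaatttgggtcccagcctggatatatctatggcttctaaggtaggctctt
C8b: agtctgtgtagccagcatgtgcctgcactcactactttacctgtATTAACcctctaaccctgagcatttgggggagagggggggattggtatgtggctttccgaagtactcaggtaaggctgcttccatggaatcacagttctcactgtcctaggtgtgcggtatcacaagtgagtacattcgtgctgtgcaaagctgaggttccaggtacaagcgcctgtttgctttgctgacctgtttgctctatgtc
The capitals in C8a are a STAT palindrome at -228 to -220, counted from the start of the gene, and an HNF1 half-site at -107 to -102. In C8b the only match is an HNF1 half-site at -206 to -201. The HNF1 half-site was in 37.5% of the 16 complement promoters given by RefSeq (some genes have more than 1 start), beside 6.43% of all 32851 promoters, and the STAT palindrome in 12.5%, beside 7.02%. The interleukin 6 element was in 6.25% and 9.1%, and the C/EBP site in 18.8% and 9.56%. An HNF4 site, CAAAGTCCA, was also searched and was found in 0 complement promoters and in 0.384% of all promoters.

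C8a was 12.61 ± 0.11 in NZO, 12.33 ± 0.13 in C3H, 12.22 ± 0.17 in 129P2 and 12.15 ± 0.12 in C57/Bl6 (SD, n = 5 each). Each NZO animal (12.47 to 12.76) lay above each animal of the other strains (11.94 to 12.46). NZO was higher by 0.46 ± 0.09 (SE) than C57/Bl6 and by 0.40 than 129P2 (adjusted p = 0.00107 and 0.00410), and by 0.29 than C3H, which was not called. In C8b, NZO was higher by 0.46 ± 0.10 (SE) than 129P2 (adjusted p = 0.00315) and by 0.37 than C57/Bl6 (adjusted p = 0.0153). The C8b call against C57/Bl6 was lost without C57/Bl6 replicate 3 (0.0521), with equal array medians (0.0563) and without the 4 arrays that stand apart most often (NZO replicate 1, C3H replicate 3, 129P2 replicate 2 and C57/Bl6 replicate 3), where the difference was 0.27 (0.0620). Over 20 arrays, deviations of C8a and C8b from their strain means had Pearson's r = 0.702 and Spearman's rho = 0.602 (permutation p = 0.00279 and 0.0129, adjusted over 6 relations 0.00418 and 0.0194), and r = 0.673 without the 2 arrays farthest out. With array spread removed, r was 0.693, and 0.436 without 2 arrays. The third chain, C8g, is a lipocalin and was called in 0 comparisons, with NZO minus C57/Bl6 at -0.18 (adjusted p = 0.283).

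Among the regulators, Cfi showed the clearest difference. It encodes factor I, the protease that inactivates C3b and C4b. Cfi read 13.12, 13.03, 12.94, 12.87 and 12.88 in NZO, 12.81, 12.84, 12.73, 12.91 and 12.996 in C3H, 12.36, 12.15, 12.31, 12.09 and 12.46 in 129P2, and 12.81, 12.77, 12.79, 12.82 and 12.79 in C57/Bl6. The 129P2 animals lay below all others, and the C57/Bl6 animals spanned the least. Relative to 129P2, NZO was higher by 0.69 ± 0.07 (SE, adjusted p = 7.65e-07) and C3H by 0.58 (adjusted p = 1.06e-05), and 129P2 was lower than C57/Bl6, at -0.52 (adjusted p = 4.69e-05). These 3 calls held under all 31 alternative settings.

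C4bp, a cofactor of factor I that binds C4b, was higher in NZO by 0.36 ± 0.09 (SE) than in 129P2 (adjusted p = 0.00826) and by 0.28 than in C57/Bl6 (adjusted p = 0.0397). The first was 0.23 without the 4 arrays named for C8b and kept its call. The second was lost without C57/Bl6 replicate 1, 2, 3 or 4 or NZO replicate 1, 2, 3 or 5 (0.0518 to 0.104), with no filter on dim genes (0.0642) and with equal array medians (0.1497). Serping1, the C1 inhibitor, was higher in NZO (13.20 ± 0.06) than in 129P2 (12.94 ± 0.17) by 0.26 (adjusted p = 0.0177), a difference of 0.17 without those 4 arrays, still called. The Serping1 call was lost with no filter on dim genes, equal array medians or only the compared strains (0.0526, 0.0618 and 0.0790). Clu, which encodes clusterin, and Vtn, which encodes vitronectin, both bind the late complex and were called in 0 comparisons. Without those 4 arrays C2 was 0.32 and Hc 0.19 higher in NZO than in 129P2, still called, while equal array medians ended both calls (0.0537 and 0.0552), as did only the compared strains for Hc (0.0713).

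In coagulation the called genes were F12, Pros1, F9, F11, the fibrinogen chains and Tfpi, in both directions. Against C57/Bl6, 6 of 19 were called in NZO, 4 higher and 2 lower, beside 10.3% of all genes called, 3.63% higher and 6.64% lower. Against C3H 3 were higher and 0 lower, beside 3.51% and 3.09% of all genes, and against 129P2 2 were higher and 0 lower, beside 4.29% and 4.61%. In C3H and 129P2 against C57/Bl6, and in C3H against 129P2, 1 of 19 was called lower in each, near the 5.34%, 4.08% and 2.78% of all genes called lower. The median over the 19 members was 0.06, 0.06 and 0.05 in the NZO comparisons. With array medians set equal, the 4 higher calls against C57/Bl6 were lost (F9 and Fga adjusted p = 0.0667, F11 0.105, Fgb 0.220) and the 2 lower ones, F12 and Tfpi, were kept, so the split was 0 higher and 2 lower. Without the 4 arrays named above it was 2 higher and 2 lower against C57/Bl6, and against C3H 1 higher and 3 lower. The NZO count against C57/Bl6 was 2 without C57/Bl6 replicate 3 and 3 without C57/Bl6 replicate 4, NZO replicate 2 or NZO replicate 3. The F-test count was 5 without C3H replicate 2 or NZO replicate 4 and 6 without 129P2 replicate 1.

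F12 encodes factor XII, the protease that starts the contact pathway of clotting. It read 11.74, 11.48, 11.46, 11.49 and 11.49 in NZO, 11.23, 11.25, 10.69, 11.04 and 11.08 in C3H, 11.59, 11.64, 11.59, 11.48 and 11.71 in 129P2, and 11.93, 11.72, 11.91, 12.01 and 11.99 in C57/Bl6. C3H lay below all other animals and C57/Bl6 at the top, with 1 NZO animal, replicate 1, reaching above the lowest C57/Bl6 animal. C3H was at 55.3% of the C57/Bl6 signal (-0.85 ± 0.09, SE, adjusted p = 1.58e-06) and lower than 129P2, at -0.54 (adjusted p = 0.000560). NZO was higher by 0.47 than C3H (adjusted p = 0.00197) and lower than C57/Bl6, at -0.38 (adjusted p = 0.0101). All 4 calls held under 31 alternative settings.

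**Figure D4:**
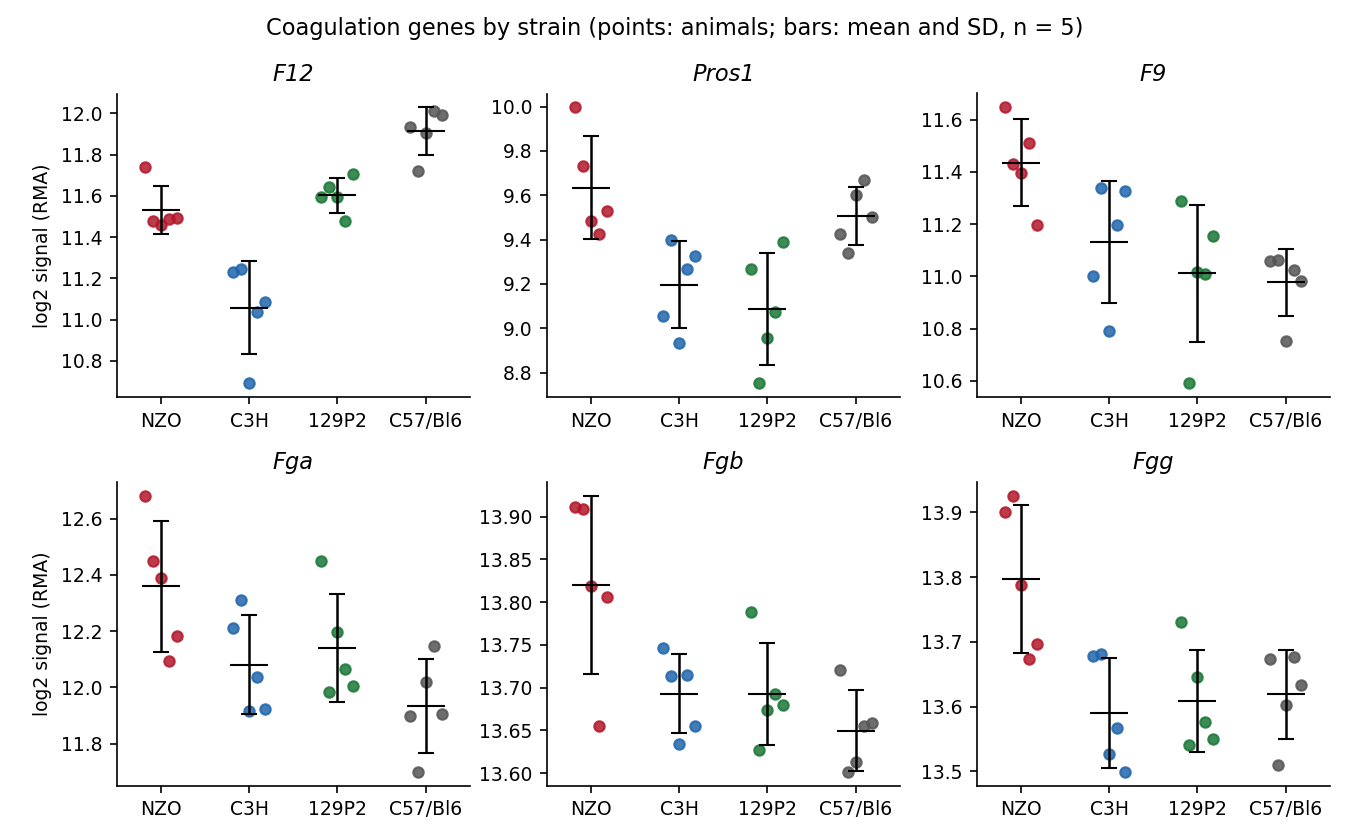
Each point is the log2 RMA signal of 1 animal, with the strain mean and SD as bars (n = 5), for 6 coagulation genes in NZO, C3H, 129P2 and C57/Bl6. F12 is lowest in C3H (10.69 to 11.25) and highest in C57/Bl6 (11.72 to 12.01), while the fibrinogen chains overlap between the strains.

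Pros1 encodes protein S, the cofactor of activated protein C. It read 9.997, 9.73, 9.48, 9.43 and 9.53 in NZO, 9.06, 9.40, 8.93, 9.27 and 9.33 in C3H, 9.27, 8.75, 8.96, 9.07 and 9.39 in 129P2, and 9.43, 9.34, 9.60, 9.67 and 9.502 in C57/Bl6. All NZO animals lay above all C3H and 129P2 animals and overlapped with C57/Bl6. NZO was higher by 0.55 ± 0.12 (SE) than 129P2 (adjusted p = 0.00507), a call that held under all 31 alternatives, and by 0.44 than C3H (adjusted p = 0.0333). The call against C3H was lost without C3H replicate 1, 3 or 4 or NZO replicate 1 or 2 (0.0516 to 0.105), with equal array medians (0.0816) and without the 4 arrays named above (difference 0.28, 0.108). 129P2 was lower than C57/Bl6, at -0.42 (adjusted p = 0.0444). That call was lost without C57/Bl6 replicate 1, 3, 4 or 5, C3H replicate 1, 4 or 5, NZO replicate 3 or 5 or 129P2 replicate 2, 3 or 4 (0.0504 to 0.136), and with equal array medians, only the compared strains, without the 4 arrays (0.0559, 0.0514 and 0.0932) or with array spread as a covariate (difference -0.25, 0.233).

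F9 encodes factor IX, the protease absent in haemophilia B, and lies on chromosome X. Its means were 11.44 ± 0.16 in NZO, 11.13 ± 0.23 in C3H, 11.01 ± 0.26 in 129P2 and 10.98 ± 0.13 in C57/Bl6 (SD, n = 5 each), and no NZO animal overlapped with C57/Bl6. NZO was higher by 0.46 ± 0.12 (SE) than C57/Bl6 (adjusted p = 0.0168), a call lost without C57/Bl6 replicate 3 (0.0540), and by 0.42 than 129P2 (adjusted p = 0.0290). The call against 129P2 was lost without NZO replicate 1, 2 or 4 or 129P2 replicate 2, 3 or 4 (0.0513 to 0.0851), with equal array medians (0.0791), with only the compared strains (0.0523) and without the 4 arrays named above (difference 0.27, 0.0527). F11, which encodes factor XI, the substrate of factor XII, was higher in NZO (11.27 ± 0.16) than in C57/Bl6 (10.90 ± 0.28) by 0.37 (adjusted p = 0.0425). C57/Bl6 replicate 3, at 10.42, lay far below the other C57/Bl6 animals (10.97 to 11.12). The F11 call was lost without any of 11 arrays, namely C57/Bl6 replicates 3, 4 and 5, C3H replicates 1, 4 and 5, NZO replicates 1, 2, 3 and 5 and 129P2 replicate 3 (0.0505 to 0.131), and in 6 other settings (0.0511 to 0.141), with a difference of 0.18 without the 4 arrays.

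The fibrinogen chains Fga, Fgb and Fgg lie next to each other on chromosome 3 and encode the subunits of the clot protein. Their promoters are shown because the chains are classical interleukin 6 targets and moved together from animal to animal. The windows are the 250 bases before each start on GRCm38.p6, from RefSeq, Fgg at chr3:83007474-83007723 and Fga at chr3:83025903-83026152 on the plus strand and Fgb at chr3:83049864-83050113 on the minus strand, with capitals for the same motifs.
Fga: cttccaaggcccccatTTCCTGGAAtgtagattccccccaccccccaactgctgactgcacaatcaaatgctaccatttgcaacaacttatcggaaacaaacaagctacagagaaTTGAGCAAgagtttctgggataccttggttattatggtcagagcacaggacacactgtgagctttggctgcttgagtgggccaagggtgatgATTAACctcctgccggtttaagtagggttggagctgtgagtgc
Fgb: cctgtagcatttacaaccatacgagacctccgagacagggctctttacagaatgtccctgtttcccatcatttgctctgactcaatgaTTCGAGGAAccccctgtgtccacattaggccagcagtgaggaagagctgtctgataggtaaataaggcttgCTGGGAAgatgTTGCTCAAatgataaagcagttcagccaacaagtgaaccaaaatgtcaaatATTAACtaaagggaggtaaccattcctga
Fgg: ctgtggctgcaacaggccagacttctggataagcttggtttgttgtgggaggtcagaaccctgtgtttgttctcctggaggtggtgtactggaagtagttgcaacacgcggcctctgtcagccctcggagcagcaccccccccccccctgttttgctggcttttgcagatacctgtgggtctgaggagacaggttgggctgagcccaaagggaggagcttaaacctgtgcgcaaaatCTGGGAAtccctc
Fga holds a STAT palindrome at -234 to -226, a C/EBP site at -135 to -128 and an HNF1 half-site at -43 to -38. Fgb holds all 4 motifs, the STAT palindrome at -162 to -154, the interleukin 6 element at -91 to -85, the C/EBP site at -80 to -73 and the HNF1 half-site at -29 to -24. Fgg holds the interleukin 6 element at -13 to -7. Of 19 coagulation promoters, 21.1% held the interleukin 6 element, beside 9.1% of all promoters, 21.1% the STAT palindrome, beside 7.02%, 26.3% the C/EBP site, beside 9.56%, and 15.8% the HNF1 half-site, beside 6.43%. The HNF4 site was in 0 of them.

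Fibrinogen differed little between strains. Fga was 12.36 ± 0.23 in NZO, 12.08 ± 0.18 in C3H, 12.14 ± 0.19 in 129P2 and 11.93 ± 0.17 in C57/Bl6 (SD, n = 5 each), and NZO was higher by 0.43 ± 0.11 (SE) than C57/Bl6 (adjusted p = 0.0183). Fgb was higher by 0.17 than in C57/Bl6 (adjusted p = 0.0471), and Fgg by 0.21 than in C3H (adjusted p = 0.0472), both with overlapping animals. The Fgb call was lost without 14 of the 20 arrays in turn (all of C57/Bl6 but replicate 1, C3H replicates 1, 4 and 5, all of NZO but replicate 4 and 129P2 replicates 3, 4 and 5, 0.0553 to 0.133), and the Fgg call without 12 (C57/Bl6 replicates 1, 4 and 5, C3H replicates 3, 4 and 5, NZO replicates 1, 2 and 3 and 129P2 replicates 3, 4 and 5, 0.0547 to 0.134). Further settings ended the Fgb call 6 times (0.0715 to 0.220) and the Fgg call 7 times (0.0700 to 0.163).

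Within strains the chains varied together. Deviations from the strain means over 20 arrays gave r = 0.909 and rho = 0.943 for Fga with Fgg (permutation p = 2e-05 for each, adjusted 6e-05 and 0.00012), r = 0.849 and rho = 0.862 for Fgb with Fgg (p = 2e-05 and 5e-05, adjusted 6e-05 and 0.00015), and r = 0.745 and rho = 0.776 for Fga with Fgb (p = 0.00115 and 0.00074, adjusted 0.0023 and 0.00148). Without the 2 arrays farthest out r was 0.889, 0.832 and 0.636, and with array spread removed 0.924, 0.847 and 0.778. The serum amyloid gene Saa2, the acute phase gene that differed most between NZO and C57/Bl6, had r = -0.0397 and rho = 0.0105 with Fgb (p = 0.846 and 0.969). C4a and C4b gave r = 0.47 and rho = 0.395 (p = 0.0307 and 0.0669, adjusted 0.0368 and 0.0803), and r = 0.293 without 2 arrays. With array spread removed they gave r = 0.606 and rho = 0.537 (p = 0.0119 and 0.0277, adjusted 0.0143 and 0.0332), and r = 0.39 without 2 arrays.

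Tfpi encodes tissue factor pathway inhibitor, which endothelial cells make as well as the liver, and was the dimmest member. It was 7.25 ± 0.16 in NZO and 7.60 ± 0.16 in C57/Bl6, without overlap, lower in NZO, at -0.35 ± 0.10 (SE, adjusted p = 0.0302). The call was lost without C57/Bl6 replicate 3 or 4 or NZO replicate 2 or 3 (0.0743 to 0.0977), and the difference was -0.20 with array spread as a covariate (adjusted p = 0.132). Endothelial markers moved the same way. Of 10, all above the floor on every array, 7 were called lower in NZO than in C57/Bl6, beside 6.64% of all tested genes. Their summed linear signal was 3541 to 4862 in NZO, 4732 to 6249 in C3H, 5046 to 6472 in 129P2 and 4990 to 6855 in C57/Bl6. Their part in the Tfpi difference was not tested. The other inhibitors and fibrinolytic genes were called in 0 comparisons: Serpinc1 (antithrombin), Serpind1 (heparin cofactor II), Serpinf2 (antiplasmin) and Plg (plasminogen).

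The remaining proteases and cofactors had strain means close to each other. F2 (prothrombin) had strain means of 12.63 in NZO, 12.65 in C3H, 12.64 in 129P2 and 12.69 in C57/Bl6. F7, F10 and Proc (protein C), which need vitamin K like F2, spanned 0.13, 0.13 and 0.11 between strain means, F5 (factor V) 0.17, F13b (the carrier of factor XIII) 0.12 and Kng1 (kininogen) 0.06. limma called none of these 7 in any comparison. Without the 4 arrays named above, F13b, Proc and Tfpi were called lower in NZO than in C3H.

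Further genes of both systems, secreted or on cell surfaces, were called in both directions. Of 39 further complement genes (receptors, membrane regulators, collectins and C1 chains), 28 were tested, and in NZO 5 were called against C57/Bl6, all lower (C1qa, Cd55, Cr1l, C5ar2 and Fcna, named here after their values were seen), 6 against C3H (3 higher, 3 lower) and 8 against 129P2 (3 higher, 5 lower). These are 17.9%, 21.4% and 28.6% of the 28, beside 10.3%, 6.6% and 8.9% of all genes, and 6.64% of all genes were lower against C57/Bl6. Susd4, a membrane regulator, was lower in NZO than in C3H, at -1.40 (adjusted p = 0.000763). Colec12, a scavenger collectin, was lower in C3H than in 129P2, at -1.21 (adjusted p = 1.41e-08). Cd59a and Cd59b encode membrane inhibitors of C9. Cd59a was higher in C3H than in 129P2 by 1.11 (adjusted p = 0.00208), and Cd59b was lower in 129P2 than in C57/Bl6, at -0.94 (adjusted p = 0.00145). Cd59b was dim on 4 of the 129P2 arrays, 2 of NZO and 1 of C3H, so the size of its difference is uncertain. C1qa is also a macrophage marker. Of 12 Kupffer cell and macrophage markers, all above the floor on every array, 2 were called lower in NZO and 4 in C3H than in C57/Bl6, beside 6.64% and 5.34% of all tested genes. In NZO 1 was higher than in C3H (3.51% of all genes) and 1 lower than in 129P2 (4.61%). In 129P2 1 was lower than in C57/Bl6 (4.08%), and in C3H 2 were lower than in 129P2 (2.78%). The summed linear signal of these markers was 5153 to 8732 in NZO, 5103 to 6171 in C3H, 5312 to 11300 in 129P2 and 6269 to 9542 in C57/Bl6. Their part in these differences was not tested.

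Of 40 further coagulation and fibrinolysis genes, 31 were tested, and in NZO 4 were called against C57/Bl6 (2 higher, 2 lower), 4 against C3H (3 higher, 1 lower) and 7 against 129P2 (3 higher, 4 lower). These are 12.9%, 12.9% and 22.6% of the 31, beside the same 10.3%, 6.6% and 8.9%, so the first is near that of all genes. F2r, the thrombin receptor, was lower in C3H than in C57/Bl6, at -1.02 (adjusted p = 0.000175). A2m was higher in NZO than in C57/Bl6 by 0.54 (adjusted p = 0.000693). Lman1, a cargo receptor for factors V and VIII, was higher in NZO than in 129P2 by 0.52 (adjusted p = 0.00439), and Hgf, a growth factor related to plasminogen, was lower, at -0.58 (adjusted p = 0.00780).

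Of 23 liver transcription factors, 19 were tested. In NZO 1 was called against C57/Bl6 (higher), 0 against C3H (6 at an unadjusted limma p under 0.05) and 6 against 129P2 (4 higher, 2 lower), which is 5.26%, 0% and 31.6% beside the same shares of all genes. Stat3, which carries the interleukin 6 signal, was higher in NZO than in 129P2 by 0.47 (adjusted p = 0.00963), and Foxa3, a forkhead factor of hepatocytes, by 0.73 (adjusted p = 0.000926). Cebpa was lower, at -0.45 (adjusted p = 0.0312) and Nr1i3, the xenobiotic receptor CAR, at -1.32 (adjusted p = 0.00130). The Cebpa call was lost without NZO replicate 2, 3 or 4 or 129P2 replicate 2, 3 or 5 (0.0586 to 0.105), with equal array medians (0.0677) and with only the compared strains (0.0624).

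The acute phase proteins outside the members had larger median differences in NZO than either cascade. Of 24, 23 were tested, and 14 were called higher and 1 lower against C57/Bl6, 13 higher and 1 lower against C3H, and 13 higher and 1 lower against 129P2, or 65.2%, 60.9% and 60.9% called. Of all tested genes 10.3%, 6.6% and 8.9% were called in these comparisons, and 3.63%, 3.51% and 4.29% were called higher. Their median difference was 0.63, 0.48 and 0.61, beside 0.14, 0.15 and 0.32 for complement and 0.06, 0.06 and 0.05 for coagulation. Against C57/Bl6, Saa2 was higher in NZO by 4.12, Saa1 by 3.43, Apcs by 2.41 and Saa3 by 2.20 (adjusted p = 2.12e-06, 1.60e-06, 1.66e-11 and 8.11e-06). The gene called lower was Hamp, which encodes hepcidin, at -2.07, -1.72 and -1.84, named here after its values were seen. These comparisons share the NZO arrays, and the groups were not tested against each other.

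**Figure D5:**
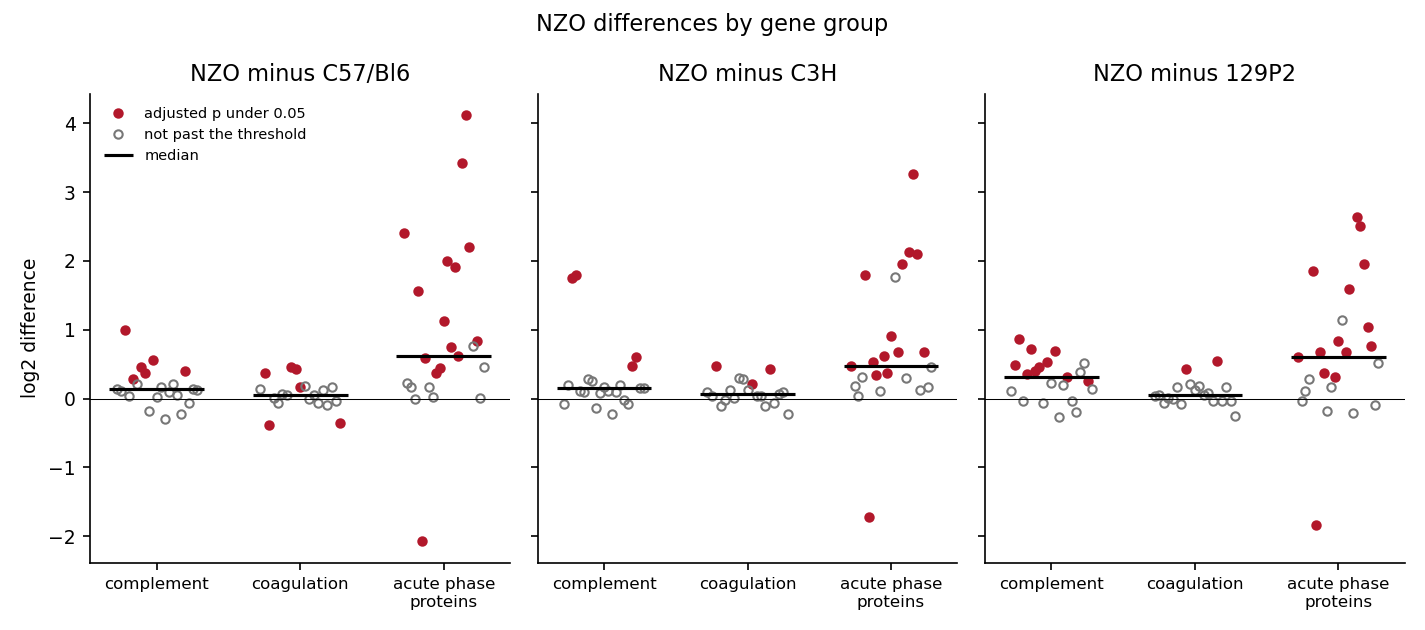
Each point is the log2 difference of 1 gene between NZO and the strain named above the panel, filled where the adjusted p is under 0.05, for complement, coagulation and other acute phase genes, with a bar at the median. The acute phase medians (0.63, 0.48 and 0.61) lie above those of complement (0.14, 0.15 and 0.32), and the coagulation medians are near 0 (0.06, 0.06 and 0.05).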

How the data were processed

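Liver RNA was hybridised to 1 whole-transcript array per animal in 20 mice of 4 strains. The deposited log2 values were made by the authors with RMA in Affymetrix Expression Console, per the submitters' processing notes, and were used as deposited. A genome build and program versions are not given in the sources used here. RMA by its definition equalises probe signals between arrays, so a difference is relative to the other genes of the array. Of 35556 probe sets 21789 carried 1 gene symbol, 1621 several and 12146 none in the platform annotation, and those with 1 symbol gave 19938 genes, each by its brightest probe set (999 genes had several). All 40 members matched RefSeq's GRCm38.p6 gene list by Entrez number, which was used for names and gene order.

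Genes above the 40th percentile of the array on at least 5 arrays were fitted with limma 3.58.1 in R 4.3.3, with 1 mean per strain, no covariate, an intensity trend, 16 residual and 6.37 prior degrees of freedom, and Benjamini-Hochberg adjustment over 14190 genes at 0.05. The p-values set differences of strain means against the spread between these animals, which limma moderates over all tested genes. Arrays have no read depth, and their number sets the precision. Before use, the procedure was checked on simulated data.

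The members and gene lists were chosen with earlier results of these data known. Every sample's value is given for members called by the F-test with a called difference of at least 0.5. From each other list up to 4 genes with the largest called difference are named, and genes near C4a and C4b for their place. Replicates are numbered in the order of the series, since the labels carry no numbers. The alternatives were no filter or a filter at the 60th percentile, equal array medians, quantile normalization, no trend, robust moderation, array weights, array spread as a covariate, only the compared strains, the mean of probe sets, and leaving out each array. Leaving out 4 arrays together, and all alternatives for genes outside the members, were added after the data were seen. Promoters came from RefSeq for 33 of the 44 members, 29 of them among the 40 measured, with more than 1 start for some, and were searched over 250 bases before the start. Python 3.11.15 with matplotlib 3.10.9 drew the figures.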

Additional observations from a re-analysis of the deposited data

Results flagged for a closer look

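In 18 of 160 groups of 5 animals (40 genes in 4 strains) 1 animal lay far from the other 4 by Dixon's test, where chance gives about 8. By this test C57/Bl6 replicate 3 lay below the rest of its strain in 7 genes. They were Hc at 12.30, C8a at 11.94, C8g at 11.95, F5 at 11.60, F9 at 10.75, F11 at 10.42 and Proc at 11.89 (log2). Without passing the test, that animal was also the lowest C57/Bl6 animal in other members, such as C2, C6, C8b, C9, C4bp and Mbl1. In Mbl2, Cfp and Tfpi it was the highest. The test set NZO replicate 1 above the rest of its strain in 4 genes, Cfb at 12.78, F2 at 12.84, F12 at 11.74 and Proc at 12.20. Without passing the test, it was also the highest NZO animal in many other members. Among them were C4a, C4b, C9, Cfi, F9, Fga and Pros1, while it was the lowest in Masp2. It set 129P2 replicate 2 low for C4bp at 11.93, Masp2 at 11.70 and Tfpi at 7.33. C3H replicate 3 was set low for Vtn at 13.53, Serpinc1 at 12.76 and Tfpi at 7.06. C3H replicate 2 was set high for Mbl2 at 10.95. Over all tested genes the animal set apart was C57/Bl6 replicate 3 in 2.25%, NZO replicate 1 in 3.46%, 129P2 replicate 2 in 6.18% and C3H replicate 3 in 4.28%. The interquartile ranges of these arrays were 2.48, 2.50, 2.19 and 2.17, the widest of C57/Bl6 and NZO and the narrowest of 129P2 and C3H. In the fit with array spread as a covariate, 13 of 19 coagulation and 4 of 21 complement members followed it. Its part in the single values set apart was not tested.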

How the results depend on the processing

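Over 31 alternative settings 0 called member differences changed sign. In complement 21 of 32 and in coagulation 5 of 14 kept their call in all of them. No paired analysis was possible because the labels carry no replicate numbers that the strains share. With equal array medians, NZO against C57/Bl6 gave 3 complement and 2 coagulation calls, NZO against C3H 1, NZO against 129P2 1 and 129P2 against C57/Bl6 0 coagulation calls. With only the compared strains in the fit, 129P2 against C57/Bl6 gave 1 complement call and NZO against 129P2 gave 1 coagulation call. With array spread as a covariate, coagulation gave 5 calls in NZO against 129P2, 0 in 129P2 against C57/Bl6 and 7 by the F-test. Quantile normalization and array weights each gave 2 coagulation calls in C3H against C57/Bl6, 2 in 129P2 against C57/Bl6 and 5 by the F-test. A filter at the 60th percentile gave 2 in 129P2 against C57/Bl6 and 5 by the F-test, and no intensity trend gave 2 in 129P2 against C57/Bl6. Leaving out 1 array, complement counts ranged from 3 to 6 in NZO against C57/Bl6, 2 to 5 against C3H, 8 to 12 against 129P2, 3 to 4 in C3H against C57/Bl6, 1 to 3 in 129P2 against C57/Bl6, 5 to 5 in C3H against 129P2 and 9 to 13 by the F-test. Coagulation counts ranged from 2 to 7, 1 to 3, 1 to 3, 1 to 1, 0 to 2, 1 to 1 and 2 to 6 in the same order. Without the 4 arrays set apart most often, complement gave 6 (5 higher, 1 lower), 3 and 11 (10 higher, 1 lower) in the NZO comparisons, and coagulation 4 (2 and 2), 4 (1 and 3) and 2 (1 and 1). The causes were not tested.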

Other observations

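The probe set shared by Cyp4v3 and Klkb1, the gene of plasma prekallikrein, read 11.99 ± 0.19 in NZO, 12.39 ± 0.10 in C3H, 11.96 ± 0.11 in 129P2 and 12.19 ± 0.19 in C57/Bl6 (log2, SD, n = 5 each), and its signal cannot be assigned to either gene. A second, dimmer probe set of Fga read 10.92 ± 0.37 in NZO, 10.49 ± 0.47 in C3H, 10.71 ± 0.30 in 129P2 and 10.25 ± 0.30 in C57/Bl6, the same order of strains as the Fga probe set of the report.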
